A study of Mus musculus with 6 samples.

Results

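Long RNAs that stay in the nucleus were examined in RPE/choroid, the retinal pigment epithelium together with the vascular layer beneath it, of young and aged mice. The list held 7 genes, namely Malat1, Neat1, Miat, Kcnq1ot1, Snhg11, Rian and Mirg, and a member was any line of the deposited gene table that carries one of these symbols. Of the 7 genes, 6 had a line among the 33924 lines of the table. Kcnq1ot1 was found neither by its symbol nor by any of the 3 synonyms that RefSeq lists for it, and its level is not analysed here. The genes were selected on their deposited age fold changes, among other things, so the age values of the 6 members stand below as a description, without a test.

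All mice were C57BL/6J, an inbred strain, with no transgene or treatment named in the labels. There were 3 young samples, whose labels state an age of 1 to 2 months, and 3 aged samples, for which the sample titles state 20 to 24 months but a second label states 22 to 24 months. All samples carry the label male, although both sexes and a somewhat older young group are named in the study's methods, and each sample pools both eyes of a mouse. Total RNA was depleted of ribosomal RNA and sequenced from stranded libraries without poly(A) selection, so RNAs that end without a poly(A) tail could be read.

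The values are those that the authors deposited from DESeq2. For each gene the table gives 1 mean over all 6 samples in normalized counts (baseMean), 1 log2 fold change, its standard error (SE) and an adjusted p. No value per sample was available to this work, so replicate error enters only through the SE, and depth per sample is unknown here. A mean for each age group was derived from the baseMean and the fold change. A positive log2 value means higher in aged mice. A gene is called tested where it has an adjusted p, and it is said to have risen or fallen where that adjusted p is under 0.05.

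Malat1 is a very abundant RNA of nuclear speckles, the bodies rich in splicing factors, and Neat1 is the scaffold on which paraspeckles are built. Malat1 and the long form of Neat1 are cut at their 3' end by RNase P rather than ended by polyadenylation, and the end left behind is protected by a triple helix formed between U-rich and A-rich stretches of the RNA. Miat, also known as Gomafu, was first described in neurons and carries repeats of a sequence that resembles the branch point of introns. Snhg11 is a spliced host of small nucleolar RNAs. Rian and Mirg are transcribed, with Meg3, from the maternally inherited copy of the imprinted Dlk1-Dio3 domain, and they host small nucleolar RNAs and microRNAs. Kcnq1ot1 is an imprinted antisense RNA that lies within Kcnq1.

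The sequence that sets the 3' ends of Malat1 and Neat1 apart from polyadenylated RNAs is shown because it bears on what a library without poly(A) selection can read. The stretches are given in the sense of the RNA, written as DNA, from the GENCODE M21 transcripts on GRCm38. Capitals mark the letters searched for, which were 2 U-rich runs (TTTCTTTT, then TTTTGCTTT) followed by an A-rich run (AAAGCAAAA), in this order within 120 bases and on the transcript strand only. They were picked with these RNAs in view.
Malat1 (minus strand, chr19:5795977-5796075): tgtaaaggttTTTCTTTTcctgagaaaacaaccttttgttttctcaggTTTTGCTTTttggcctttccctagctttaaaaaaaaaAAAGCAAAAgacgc
Neat1 (minus strand, chr19:5824708-5824807): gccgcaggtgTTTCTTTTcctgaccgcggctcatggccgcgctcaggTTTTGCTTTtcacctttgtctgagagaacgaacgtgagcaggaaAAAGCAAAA
The Malat1 stretch covers bases 6598 to 6696 of a transcript of 6983 bases, and 287 annotated bases follow it. The Neat1 stretch forms the last 100 bases of a transcript of 20771 bases. Among the transcripts of 55341 annotated genes, only those of 2 genes held the 3 runs in this order, Malat1 and Neat1. A match of letters is a description and does not show that a helix forms.

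In Miat the repeat is shown in its densest part. Capitals mark TACTAAC, searched for in the transcript sense, and the stretch lies in the last of 7 exons (minus strand, chr5:112216752-112216812).
Miat: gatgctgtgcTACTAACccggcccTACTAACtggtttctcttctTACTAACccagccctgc
The longest Miat transcript, of 9163 bases, held 6 copies. At least 6 copies were found in the transcripts of 4 of the 55341 genes, or 0.00723%, and at least 1 copy in 5.64%. Of the other members, Kcnq1ot1 held 4 copies in 93092 bases and Neat1 held 1 in its longest transcript, while the longest transcripts of Malat1, Snhg11, Rian and Mirg held 0.

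For Rian and Mirg the microRNAs encoded within them are shown, limited to those whose genes had a baseMean of at least 5. They are taken from RefSeq (GRCm38.p6), with the seed, bases 2 to 8, in capitals.
mmu-miR-382-5p: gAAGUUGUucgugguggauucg
mmu-miR-382-3p: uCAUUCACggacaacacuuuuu
mmu-miR-134-5p: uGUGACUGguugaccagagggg
mmu-miR-134-3p: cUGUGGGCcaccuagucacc
mmu-miR-1188-5p: uGGUGUGAgguugggccagga
mmu-miR-1188-3p: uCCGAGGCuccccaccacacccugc
No 2 of these 6 share a seed. Mir382 and Mir134 lie in exons of Mirg, and Mir1188 lies in an intron of Rian.

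The 5 members other than Snhg11 were lower in aged RPE/choroid, and their deposited adjusted p was under the threshold. That is 5 of 6 members, beside 9.92% of the 18636 genes tested that fell and 11.3% that rose. Since the members were picked with this contrast known, nothing is read from their share. The median log2 fold change was -1.21 over the 6 members and -0.01 over all genes tested. In bulk tissue, fewer cells that make an RNA and less of it per cell cannot be told apart.

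**Figure D1:**
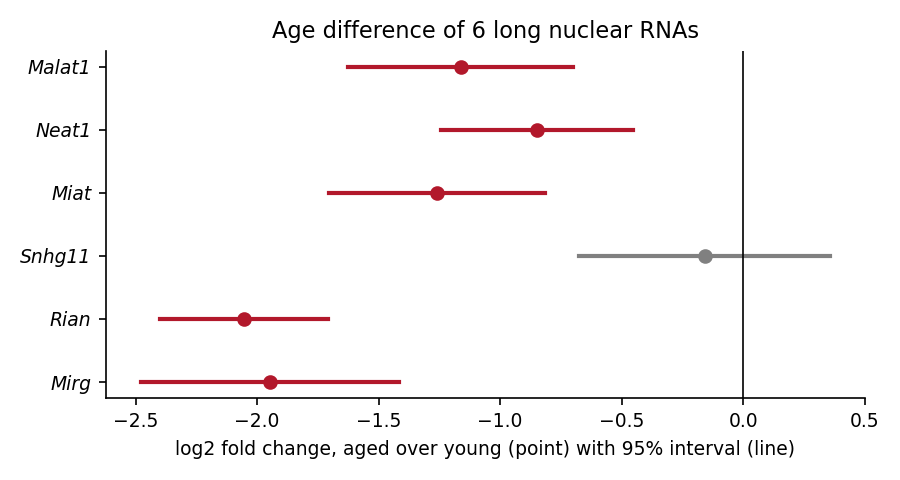
The log2 fold change of each of the 6 RNAs, aged over young, is a point, and the line is its 95% interval from the deposited SE (red, adjusted p under 0.05; grey, not). Rian and Mirg lie farthest below 0, at -2.05 and -1.95, and only the interval of Snhg11 crosses 0.

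Malat1 is a single-exon gene on chromosome 19 (GRCm38, 5795690 to 5802672, minus strand). With a baseMean of 269792 normalized counts it was the most abundant gene of the table by the mean over all 6 samples. This was 1.40 times the next one, 7SK, an abundant short nuclear RNA, at 192300. Malat1 held 1.41% of the summed baseMean of all genes. Its derived mean was 372974 normalized counts in young and 166610 in aged mice. The log2 fold change of Malat1 was -1.16 (SE 0.24), so that the aged level was 44.7% of the young level, with a 95% interval of 32.4% to 61.6%. This SE was larger than that of 96.0% of the 1166 tested genes with a baseMean of at least 3000, whose median SE was 0.14, so the value of Malat1 was less precise than that of most genes of high count.

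Neat1, also of a single exon, lies on the same strand of chromosome 19 (5824708 to 5845478), with 22035 bases between it and Malat1. Its baseMean was 5080, the rank of 505 among all genes. The derived mean was 6531 normalized counts in young and 3630 in aged mice. Among the 5 RNAs that fell it had the smallest difference, with a log2 fold change of -0.85 (SE 0.20) and an aged level at 55.6% of the young one (95% interval 42.3% to 73.0%). The intervals of Malat1 and Neat1 overlap over most of their length, and the difference between them was not tested. The gene line sums the short and the long Neat1 isoform, which share their 5' part, so the 2 cannot be separated here.

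Miat lies on chromosome 5 (112213228 to 112229395, minus strand) and was expressed at a low level, with a baseMean of 163. Its derived mean was 230 normalized counts in young and 96.0 in aged mice. The log2 fold change was -1.26 (SE 0.23), which puts the aged level at 41.8% of the young level (95% interval 30.7% to 56.8%).

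Snhg11 lies on chromosome 2 (158375638 to 158386145, plus strand) and is classed as protein-coding by the annotation although it is known as a host of small nucleolar RNAs. Its baseMean was 685. The derived means were 722 normalized counts in young and 647 in aged mice. It did not pass the threshold, at a log2 fold change of -0.16 (SE 0.26), and its 95% interval ran from -0.68 to 0.36, or from 62.6% to 128% of the young level. The difference between Snhg11 and the other members was not tested. The SE of Snhg11 exceeded that of 97.3% of the 5640 tested genes within 2-fold of its baseMean.

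Rian lies on chromosome 12 (109603940 to 109661716, plus strand) and showed the largest fold difference of the members. Its derived mean was 2390 normalized counts in young and 576 in aged mice, around a baseMean of 1483. The log2 fold change was -2.05 (SE 0.18), or 24.1% of the young level (95% interval 19.0% to 30.6%). By this value Rian ranked 44 from the lowest of the 18636 genes tested and 9 from the lowest of 1327 genes, namely the long non-coding genes tested and Snhg11.

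Mirg, which lies 68047 bases beyond Rian on the same strand (109729764 to 109749460), was the least abundant member with a baseMean of 82.1. The derived mean was 130 normalized counts in young and 33.8 in aged mice. The log2 fold change of -1.95 (SE 0.27) corresponds to 25.9% of the young level, with a 95% interval of 17.9% to 37.5%. The intervals of Rian and Mirg overlap, and the difference between them was not tested.

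**Figure D2:**
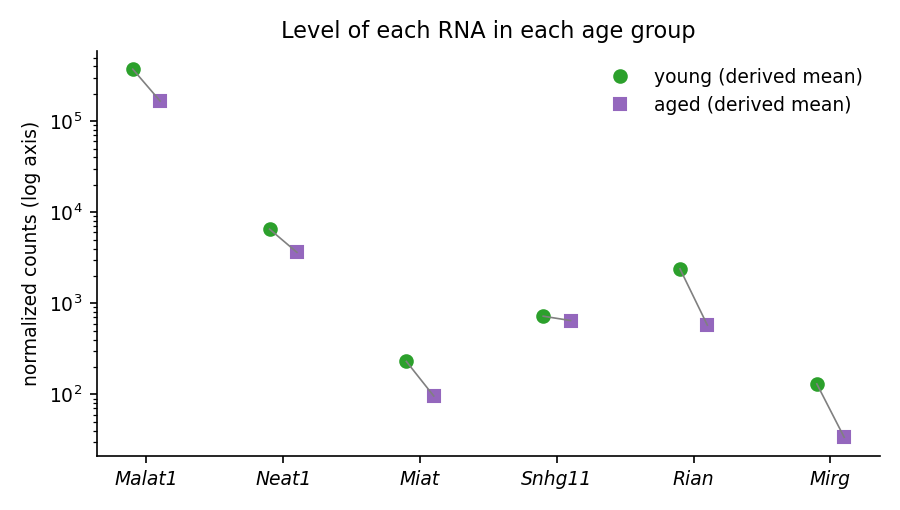
The derived mean of each RNA in young (circles) and aged (squares) mice is drawn in normalized counts on a log axis, without error bars because no value per sample was available to this work. The young means run from 130 for Mirg to 372974 for Malat1.

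Per kilobase of merged exons, which allows genes of different length to be set side by side, the mean level over all 6 samples was 38636 normalized counts for Malat1, 245 for Neat1, 81.3 for Rian, 80.4 for Snhg11, 17.5 for Miat and 11.3 for Mirg. Malat1 ranked seventh of 17940 tested genes on this scale, at 158 times the level of Neat1. The authors made their normalized counts from TPM values, which are already corrected for length, and whether that correction remains in the baseMean is not given in the sources used here. Where it does, these levels are corrected for length a second time and the baseMean values themselves are the ones to compare, in which the 6 members stand in the same order. The order per kilobase at the lower end depended on the length used. Divided by the longest transcript, Rian rose to 183 and Snhg11 to 117, and Mirg at 21.5 passed Miat at 17.8. The spread of these levels between samples is unknown here, so Rian and Snhg11, and likewise Miat and Mirg, cannot be ordered. The order over all 6 samples also need not hold within an age group. On the baseMean scale, the derived mean of Rian lay above that of Snhg11 in young mice, at 2390 against 722. In aged mice it lay below, at 576 against 647.

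Most of the sequence of each member was found in no other gene. Of the 31-base words in the longest transcript of each member, the share that also occurs in a transcript of another gene ran from 1.76% in Rian to 6.58% in Miat. For Miat the 6 other genes involved are few. The one that shares most, with 331 words, is a short RNA annotated within an exon of Miat on the same strand. The genes that share most with Neat1, Rian and Mirg likewise lie in exons of these members. The shares of Miat, Neat1, Rian and Mirg thus include the member's own bases under another name. The words of Malat1 are shared with 1167 genes. Whether the counting used strand is not given in the sources used here, so antisense reads may be included.

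**Figure D3:**
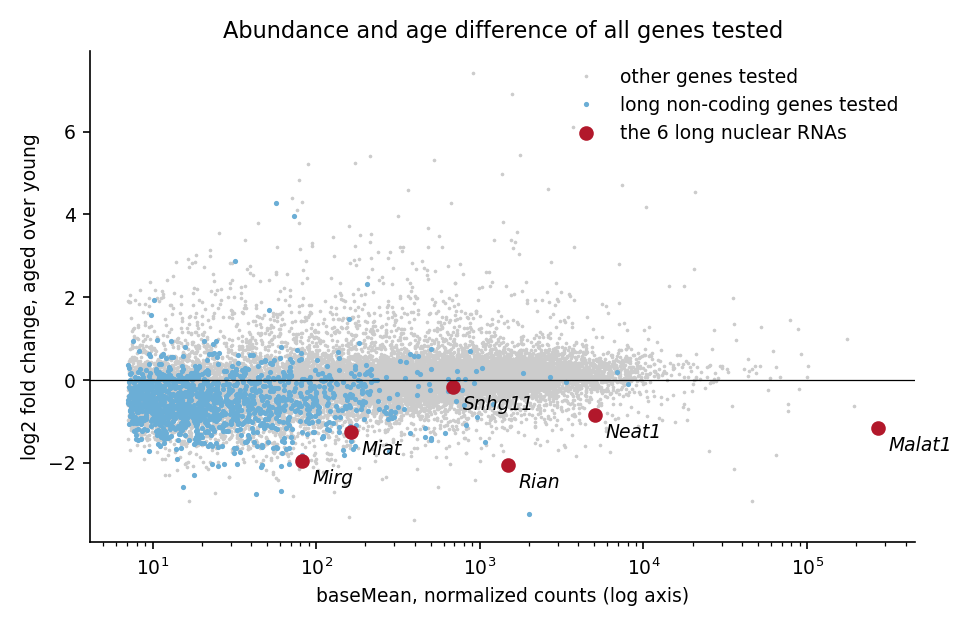
Each point is a tested gene, placed by baseMean on a log axis and by its log2 fold change, aged over young. Long non-coding genes are blue and the 6 members red, and the blue points lie mostly below 0, with a median of -0.51 against -0.01 for all genes tested.

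The members were next set beside genes of their own class. Of 1326 long non-coding genes tested, 262 fell, or 19.8%, and 17 rose, or 1.28%. Of 15270 protein-coding genes, 8.50% fell and 12.7% rose. The median log2 fold change was -0.51 for the first class and 0.03 for the second. Single-exon long non-coding genes, the structure of Malat1 and Neat1, had 31 of 140 genes that fell and a median of -0.39, and those with more exons had 231 of 1186 and a median of -0.52. At a baseMean of at least 80, which covers all 6 members, 85 of 226 long non-coding genes fell and 9 rose, with a median of -0.39. The values of Malat1, Neat1, Miat, Rian and Mirg all lie below these medians, and that of Snhg11 lies above those of the long non-coding classes. As the members were picked with these values known, this is a description.

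A list of 17 other nuclear long non-coding RNAs gave 9 tested genes, of which 5 fell and none rose, with a median of -0.72. Nespas, an antisense RNA of the imprinted Gnas locus, had a log2 fold change of -2.58 (SE 0.44) at a baseMean of only 15.5 (DESeq2 adjusted p = 1.88e-07). Rmst, a long non-coding RNA known from neural differentiation, fell by 1.29 on the log2 scale (SE 0.30). Dleu2, the host of the miR-15a/16 cluster, stood at -1.16 (SE 0.29), close to Malat1, and Airn, the antisense RNA of the imprinted Igf2r locus, at -1.04 (SE 0.23). Tug1 did not follow them, at -0.04 (SE 0.11) and a baseMean of 3357.

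Of the 16 other Snhg host genes on the list, 7 were tested and 0 passed by DESeq2, as was the case for Snhg11, while 2 had an unadjusted p under 0.05. Their median was -0.21. Gas5, the most abundant, had a log2 fold change of 0.18 (SE 0.15), and Snhg1 one of -0.36 (SE 0.18, DESeq2 adjusted p = 0.14).

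The mRNAs of proteins found in paraspeckles and in nuclear speckles, the bodies of Neat1 and Malat1, were followed as 2 lists of 20. Of 19 mRNAs of paraspeckle proteins tested, 8 fell and none rose, with a median log2 fold change of -0.35. These falls were smaller than that of Neat1 itself at -0.85. Taf15, an RNA-binding protein, fell by 0.84 (SE 0.22), Hnrnpa1 by 0.81 (SE 0.24), Hnrnph3 by 0.78 (SE 0.24) and Rbmx by 0.76 (SE 0.18). Of the core paraspeckle proteins that bind Neat1, Sfpq stood at -0.50 (SE 0.19) and Pspc1 at -0.73 (SE 0.23), both past the threshold, whereas Nono, of the same family, stood at 0.04 (SE 0.12) and did not pass.

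Of 19 mRNAs of nuclear speckle proteins tested, 8 fell and none rose, with a median of -0.38. The splicing factor Srsf5 had the largest fall, with a log2 fold change of -0.81 (SE 0.18, DESeq2 adjusted p = 7.21e-05). Srsf11 fell by 0.64 (SE 0.14), Snrnp70, a protein of the U1 particle, by 0.64 (SE 0.14), and Rbm25 by 0.62 (SE 0.15). Of the scaffolds of the speckle, Son stood at -0.39 (SE 0.14) and passed, and Srrm2 stood at 0.27 (SE 0.21) and did not. The values of the mRNAs that fell lie closer to 0 than that of Malat1, and the differences from Malat1 were not tested.

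Genes linked to the processing or binding of the 3' ends shown above gave no call in either direction. Of 13 tested genes, which cover subunits of RNase P, RNase Z (Elac2), the CCA-adding enzyme (Trnt1) and the triple-helix-binding protein Mettl16, 0 passed by DESeq2 and 0 had an unadjusted p under 0.05. Their log2 fold changes lay between -0.12 and 0.25, with a median of 0.00.

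**Figure D4:**
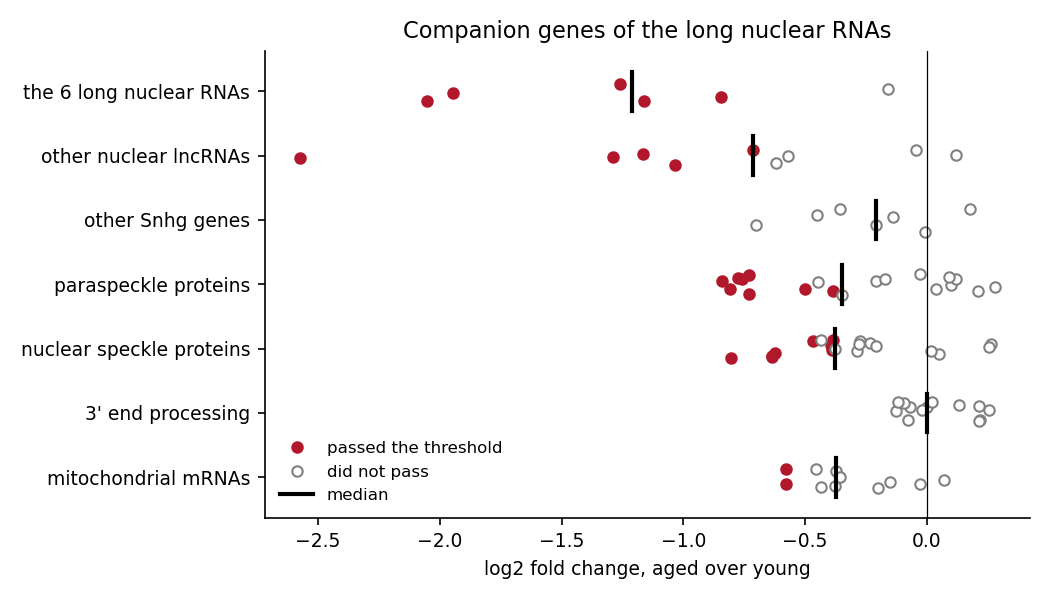
Each point is the log2 fold change of a tested gene, aged over young, by list (filled, adjusted p under 0.05; open, not), and the black bar is the median of the list. The medians are -1.21 for the members, -0.72 for other nuclear long non-coding RNAs, -0.21 for other Snhg genes, -0.35 for paraspeckle proteins, -0.38 for speckle proteins, 0.00 for 3' end processing and -0.37 for mitochondrial mRNAs.

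Rian and Mirg were read in the context of the Dlk1-Dio3 domain. Meg3, the first gene of the maternally expressed string, was expressed at a baseMean of 1073 and fell by 1.49 on the log2 scale (SE 0.22, DESeq2 adjusted p = 8.33e-10). Rtl1, a retrotransposon-derived gene expressed from the paternal copy, lies 3609 bases before Rian on the opposite strand and fell by 2.09 on the log2 scale (SE 0.26). The microRNA precursors annotated antisense to it were listed at 0. Dio3, the thyroid hormone deiodinase at the far end, fell by 1.55 (SE 0.40). Dlk1 did not pass, at -0.64 (SE 0.32, DESeq2 adjusted p = 0.15), nor did Dio3os at -0.87 (SE 0.38, DESeq2 adjusted p = 0.082). Begain, at the near edge, stood at 0.13 (SE 0.39). Of these 6 tested genes, Meg3, Rtl1 and Dio3 fell. With Rian and Mirg, which were selected on this contrast, 5 of 8 did. Genes known to be expressed from the maternal copy (Meg3, Rian and Mirg) and from the paternal copy (Rtl1) were both among those that fell. The parental copy behind the reads was not measured here. Whether the counting used strand is not given, so the value of Rtl1 may include reads from the opposite strand.

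Between the start of Meg3 and the end of Mirg, 48 microRNA precursors had a line on the strand of the long RNAs. Of these, 11 were listed at 0 and 37 had a fold change, 33 of them below 0. Only Mir382, in an exon of Mirg, was tested. It had a log2 fold change of -1.21 (SE 0.46) at a baseMean of 7.45 (DESeq2 adjusted p = 0.043). Mir134 was at -0.90 (SE 0.46) and a baseMean of 5.65, and Mir1188, within Rian, at -1.07 (SE 0.46) and 5.48, neither with an adjusted p. Of the precursors with a line, 11 overlap Mirg and 3 overlap Rian, so reads of the long RNA may count towards those, and libraries of this kind do not measure mature microRNAs.

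**Figure D5:**
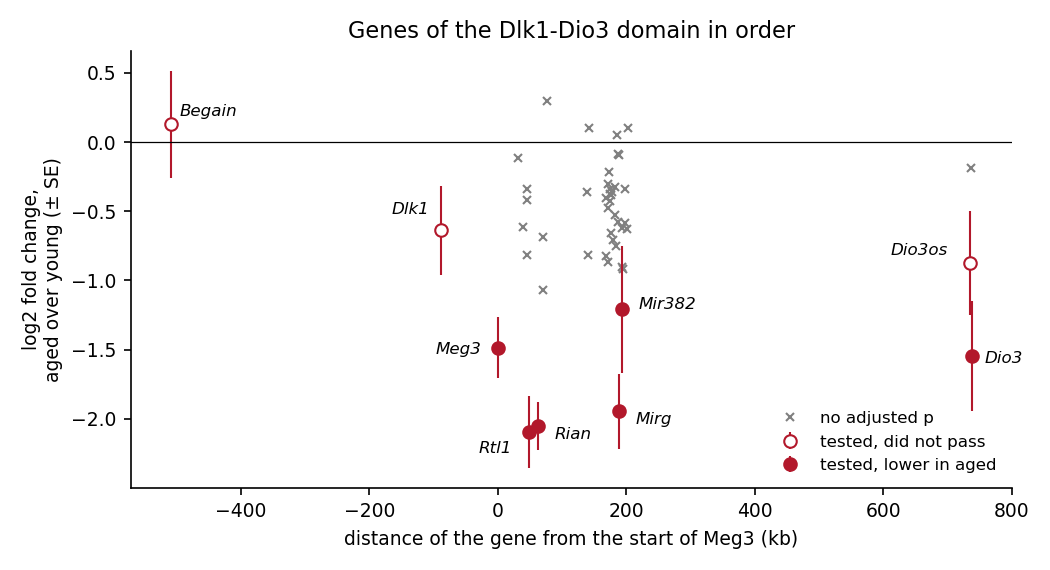
Genes of the Dlk1-Dio3 domain are placed by distance from the start of Meg3 in kilobases and by log2 fold change, aged over young. Error bars are 1 SE. Filled circles fell, open circles did not pass, and crosses are genes with no adjusted p. Meg3, Rtl1, Rian and Mirg lie between -1.49 and -2.09, while Begain lies at 0.13.

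Kcnq1ot1 spans 93092 bases of chromosome 7 (143203458 to 143296549, minus strand), antisense to Kcnq1. With its own level not analysed here, only the genes it lies among can be given. Of 10 tested genes of the domain, 2 fell and 1 rose, with a median of 0.11. Cdkn1c, an inhibitor of the cell cycle that Kcnq1ot1 is known to silence on the paternal copy, had a log2 fold change of -0.52 (SE 0.16, DESeq2 adjusted p = 0.0097). Slc22a18 rose by 0.56 (SE 0.19), and Trpm5 fell by 1.32 (SE 0.32) at a baseMean of 45.0. Kcnq1 itself did not pass, at -0.35 (SE 0.19). Neither did Tspan32 at 0.82 (SE 0.40), Dhcr7 at 0.21, Cd81 at 0.15, Osbpl5 at 0.12, Nap1l4 at 0.11 and Tssc4 at -0.04. Phlda2 and Ascl2 had baseMean values of 2.38 and 1.55 and no adjusted p.

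Genes near the members on the chromosome were taken as the 3 nearest tested protein-coding genes on each side. Of the 30 such genes, 4 fell and 4 rose, with a median of 0.09. Around Malat1 and Neat1, which share all 6 neighbours, none fell, and Frmd8, which lies 4223 bases beyond Neat1, rose by 0.42 (SE 0.14, DESeq2 adjusted p = 0.018). The neighbours of Miat all had values above 0, from 0.08 to 0.42, and none passed. Near Snhg11, Lbp, the lipopolysaccharide-binding protein, rose by 0.73 (SE 0.15). Near Rian and Mirg the falls were those of Rtl1 and Dio3, and Dync1h1, a heavy chain of dynein 851991 bases beyond Mirg, rose by 0.38 (SE 0.12). The remaining calls, of Cdkn1c, Trpm5 and Slc22a18, belong to the neighbours of Kcnq1ot1.

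Other features of these samples moved with age alongside the members. The tissue label was borne out by the RPE markers, with Rpe65 at a baseMean of 43745, and of 9 RPE markers tested 3 rose and none fell. Rod markers were present as well, with a summed derived level of 113787 normalized counts in young and 134558 in aged mice, and 0 of 12 passed by DESeq2, with 0 at an unadjusted p under 0.05. The 14 neuronal markers, which bear on Miat, Rian and Meg3 as RNAs known from neurons, gave 0 calls by DESeq2 (1 at an unadjusted p under 0.05) with a median of 0.00, and summed to 8895 in young and 9110 in aged mice. Of 13 markers of inner retinal neurons tested, only Trpm1 fell, by 1.12 (SE 0.19). Fibroblast markers fell in 7 of 10 cases, with a median of -1.70 and a summed level of 315285 in young against 131120 in aged mice, led by Col1a1 at -2.91 (SE 0.17). The genes that fell included the collagens Col1a1, Col1a2, Col3a1 and Col5a1, while Dcn, a proteoglycan, rose by 0.51 (SE 0.13), and Lum at 0.26 (SE 0.14) and Pdgfra at 0.21 (SE 0.14) did not pass. Of 12 macrophage markers tested, 9 rose and 1, Cd163, fell, with a median of 1.84, and the summed level over these 12 was 12262 in young and 32376 in aged mice. With Lyz2, which has no adjusted p, the sums were 16536 and 105243. Of 13 markers of T and NK cells, 10 rose, with sums of 237 and 901. No marker with a line in the table was at 0. The part of these cell types in the falls of Malat1, Neat1, Miat, Rian and Mirg was not tested.

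Lists for other tissue that the dissection could carry were counted as well. Of 8 skeletal muscle markers tested 3 fell, with a median of -0.55 and, over those 8, a summed level of 146222 in young and 124791 in aged mice. With Ttn and Ckm, which have no adjusted p, the sums were 360562 and 256754. Of 7 melanocyte markers 1 fell, of 7 Schwann cell markers 1 rose, and of 9 endothelial markers 1 rose and 1 fell. Mitochondrial mRNAs, which lie outside the nucleus, had a median of -0.37, and 2 of 11 tested genes fell, mt-Co1 at -0.58 (SE 0.15) and mt-Nd5 at -0.58 (SE 0.18). RNA quality per sample is not analysed here, and its part in the values of the members was not tested.

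Under other rules the share of all genes tested that fell was 6.22% when genes of low count were kept in the adjustment, 5.76% at an adjusted p under 0.01, 4.62% when a log2 fold change of at least 1 in size was also required, and 12.3% when fold changes were centred on the abundant genes. That centring also turned the split of all calls, from 1849 lower and 2100 higher to 2289 lower and 1650 higher. Malat1, Miat, Rian and Mirg counted as lower under each of these rules. Neat1 did so under all but the one on the size of the fold change, and Snhg11 under none.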

How the data were processed

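Total RNA of RPE/choroid from 3 young and 3 aged mice was analysed from 1 deposited table. The authors trimmed reads with BBDuk, ran STAR against Ensembl transcripts of GRCm38, estimated TPM with Sailfish, turned TPM into normalized counts by library total and tested young against aged in DESeq2. The authors' deposited baseMean is a normalized signal, the mean over all 6 samples. The fold changes and SE that the authors deposited are log2 values. Dividing one by the other gives the Wald score, which was also deposited, and each p-value and adjusted p was deposited by the authors. These columns are the comparison of the authors themselves. They were described and not refitted, because the table gives no value per sample, and the depth per sample is unknown here. The table does not name the direction of its sign, which was read as young over aged, after the split of higher and lower genes in the study, and was reversed. Every direction rests on this. No SE exceeds 0.46, and the median SE was 0.24 for 5064 genes whose baseMean lies above 0 and under 2, but 0.43 for tested genes under 30. An SE that falls at the lowest counts is a mark of fold changes shrunken towards 0, so they are read as shrunken, an inference that the sources do not state. Changes of low or variable genes are then understated, and derived group means lie too close together. Nothing in the sources says that the samples of a group came from separate cages or litters.

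Of 33924 genes, 7243 had a baseMean of 0, 160 a fold change but no p, 7885 a p but no adjusted p, and 18636 were tested. The derived young mean is the baseMean times 2 divided by 1 plus the fold change, assuming that the baseMean weights both groups equally, and the aged mean follows from it. Intervals are the fold change plus or minus its SE times the normal quantile for 95%. Genes were matched by symbol or RefSeq synonym to GENCODE M21 (GRCm38), which found 17940 of the tested genes (96.3%). The recomputed Wald score and Benjamini-Hochberg adjustment differed from the deposited ones by at most 0.331% and 0.572%, and the counting of calls was tested on simulated data. Members and lists were chosen with earlier results of these data known. Named are all members, up to 4 genes past the threshold per list, all genes of the 2 imprinted domains and the neighbours past the threshold. Tug1, Gas5, Snhg1, Sfpq, Pspc1, Nono, Son, Srrm2, Col1a2, Col5a1, Dcn, Lum, Pdgfra, Lyz2, Ttn, Ckm, Rpe65, 7SK, Trf and 3 microRNA genes (by a baseMean of at least 5) were named beyond this rule, with their values known. Scripts ran in Python 3.11.15 with pandas 2.3.3.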

Additional observations from a re-analysis of the deposited data

How the results depend on the processing

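The 5 falls among the members stood under every alternative except that requiring a log2 fold change of at least 1 in size, which left 4, without Neat1. No member changed its sign. Centring on genes with a baseMean of at least 100, whose median was 0.06, moved Rian to -2.12, Malat1 to -1.23 and Snhg11 to -0.22. Genes called on the companion lists numbered 29 (28 lower), and 19 at an adjusted p under 0.01 and 8 with the size rule. Neighbouring genes called numbered 8, and 5 and 3 under the same settings. These rules are stricter by construction. Genes called on the marker lists ranged from 26 to 39. The levels per kilobase of Rian and Mirg depended on the transcript length used, at 81.3 against 183 and 11.3 against 21.5. No paired analysis was possible because values per sample are not in the table used here, and for the same reason no sample could be left out. What 1 mouse contributes to any value is therefore unknown here.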

Other observations

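The split by annotation class can be followed into finer types. Among tested genes, 15 of 38 sense intronic RNAs fell and none rose, with a median log2 fold change of -1.002. Of 622 antisense RNAs, 126 fell and 7 rose (median -0.58). Of 315 lincRNAs, the type of Malat1, Neat1, Miat and Mirg, 50 fell and 6 rose (median -0.42), and of 282 processed transcripts, the type of Rian, 59 fell and 3 rose (median -0.44). MicroRNA precursors had 19 of 42 that fell, and all 42 had values below 0. Of 35 small nucleolar RNAs tested, 3 fell and 34 had values below 0. These types were not tested against each other, and the median SE was 0.40 in long non-coding genes against 0.18 in protein-coding ones.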
